A study of Mus musculus with 3 samples.

Results

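The vascular endothelial growth factor (VEGF) system was read at the transcript level from 9 genes, the ligands Vegfa, Vegfb, Vegfc and Pgf, the receptors Flt1, Kdr and Flt4, and the neuropilins Nrp1 and Nrp2. They were taken by gene name from the 43472 rows of the deposited table, where all 9 were found, and no measured value entered the rule. RNA-seq was performed on primary fibroblasts isolated from the tails of C57BL/6 mice, which were scratched in culture as an in vitro wound model. The wounded fibroblasts were treated for 5 h with soluble micrograft (MG), the cell-depleted liquid from minced mouse skin, together with PD0325901 (1 μM), an inhibitor of MEK, the kinase that activates ERK. All 3 libraries analysed here, labelled replicates 1, 2 and 3, share this MG + PD0325901 treatment at 5 h. The labels do not say whether they came from separate mice. Untreated and MG-only cultures were not analysed here, so the values describe levels under 1 condition and their spread between replicates, and no effect of MG or of PD0325901 was tested. The cells were a primary culture from digested tail tissue and not a sorted population.

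VEGF ligands are secreted dimers that bind receptor tyrosine kinases found mainly on endothelial cells, where they drive vessel growth, survival and permeability. Vegfa binds Flt1 and Kdr, Vegfb and Pgf bind Flt1, and Vegfc binds Flt4 and, once processed, Kdr. Neuropilins have no kinase of their own and act as co-receptors for VEGF ligands and for class 3 semaphorins, and in skin wounds fibroblasts are one of several known sources of VEGF ligands.

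The 3 libraries held 17244505 to 27037783 reads on genes. Values are given as normalized counts, the read counts of a library divided by its size factor, so that the upper limit for a gene with no reads (3 reads) was 2.61 in replicate 1, 2.11 in replicate 2 and 3.56 in replicate 3. This limit, like every counting error given here, leaves out amplification, as no molecular identifiers were used. All 10 fibroblast markers were detected in each library, and 3 of them had a range of more than 2-fold. Replicate 2 stood apart in these 3, with Thy1 higher at 2031, 15760.0 and 1652 normalized counts. Lum (5073, 289 and 1164) and Dcn (3661, 1723 and 3659) were lower there. The other fibroblast markers, such as Pdgfrb (2894, 2942 and 3129), did not set replicate 2 apart. Replicate 2 held the highest value of 40.6% and the lowest value of 37.3% of the 12204 detected genes. Detected genes were those at 10 normalized counts or more in each of the 3 libraries. Of the markers of other cell types, 1 of 6 keratinocyte genes, 1 of 5 Schwann cell genes, 3 of 10 leukocyte genes and 4 of 7 pericyte genes were detected, the last summing to 4682, 7067 and 12148 normalized counts, mostly from Cspg4. The summed leukocyte list was 208 and 292 normalized counts in replicates 1 and 2 and 885 in replicate 3, where Lyz2 had 601.

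Of the 9 genes, 7 were detected, namely all 4 ligands, both neuropilins and the receptor Flt4, while Flt1 and Kdr were under the minimum. Together the 9 genes took 12572, 18091 and 7493 reads, or 0.0558%, 0.0669% and 0.0435% of the reads on genes. Vegfa alone held 61.1%, 50.6% and 52.1% of those reads. In RNA from a whole culture, fewer cells with a transcript and less transcript per cell cannot be told apart.

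**Figure D1:**
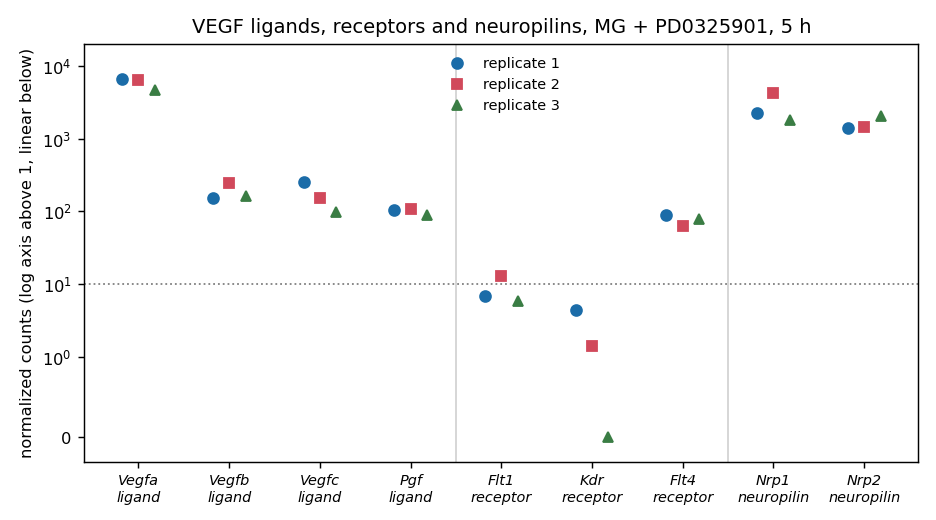
Normalized counts (log axis above 1, linear below) of the 9 genes in replicates 1 (circles), 2 (squares) and 3 (triangles), with the detection minimum of 10 as a dotted line. Vegfa lies between 4631 and 6667, Nrp1 and Nrp2 lie between 1407 and 4256, and Flt1 and Kdr fall near or below the minimum.

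Vegfa, the principal inducer of vessel growth, had the highest level of the 4 ligands in every library, per kb as well as in normalized counts. Vegfa lies on chromosome 17 (chr17:46016993-46032369, minus strand, GRCm38) and averaged 5916 ± 1118 normalized counts (SD, n = 3), from 6667 in replicate 1, 6449 in replicate 2 and 4631 in replicate 3. Replicates 1 and 2 lay close together and replicate 3 was lower, at a highest-to-lowest ratio of 1.44. Counting error was small here, since even the lowest library held 3907 Vegfa reads, a relative error of 1.60%. Divided by the 4285 bases of its annotated exons, the Vegfa level was 1381 ± 261 normalized counts per kb, at percentile 93.8 of the 11639 detected genes with an annotated length, whose median was 107. The table counts reads per gene, so the splice forms of Vegfa, which differ in how tightly they bind heparan sulfate in the matrix, were not told apart.

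The promoter of Vegfa is shown because this gene carried most of the VEGF ligand transcript, and it can be read against the promoters of Flt1 and Kdr, the lowest members, given further on. It covers the 250 bases upstream of the RefSeq start (chr17:46032378-46032627, minus strand, GRCm38.p6), 5′ to 3′, with GC boxes in capitals (GGGCGG or its reverse complement CCGCCC).
Vegfa promoter: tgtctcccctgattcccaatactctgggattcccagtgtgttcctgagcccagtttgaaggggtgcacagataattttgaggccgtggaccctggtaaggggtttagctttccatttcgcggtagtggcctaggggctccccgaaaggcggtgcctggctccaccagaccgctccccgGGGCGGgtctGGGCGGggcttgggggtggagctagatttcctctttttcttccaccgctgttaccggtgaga
The GC boxes of the Vegfa window, the letters bound by Sp1 family factors, began 72 and 62 bases upstream of the start. The window held neither the AP-1 letters TGANTCA, nor the cyclic AMP response element (CRE) TGACGTCA, nor the core of the hypoxia response element ACGTG, nor the TATA box letters TATAAA, on either strand. These motifs were chosen after the sequences had been read, so their counts are a description and no test. A missing match says only that the letters are absent from these 250 bases.

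The other ligands had at most 346 reads in a library. Vegfb, a ligand of Flt1 known for its role in metabolic tissues (chr19:6982473-6987651, minus strand), had 155, 244 and 162 normalized counts, a mean of 187 ± 49.4, and was highest in replicate 2. Vegfc, the main ligand for lymphatic vessel growth (chr8:54077606-54187096, plus strand), had 252, 151 and 97.2 normalized counts, a mean of 167 ± 78.4. Its 3 values were well separated, with replicate 1 at 2.59 times replicate 3, the widest ratio among the detected members. Pgf, placental growth factor, a ligand of Flt1 (chr12:85166635-85177790, minus strand), had 105, 106 and 87.7 normalized counts, a mean of 99.7 ± 10.4. This was the narrowest spread of the detected members, at a highest-to-lowest ratio of 1.21.

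Shares of the ligand transcripts were computed per kb inside each library, where the size factor drops out. Vegfa made up 86.9%, 85.7% and 86.3% of the summed per-kb level of the 4 ligands, a mean of 86.3% ± 0.564 (SD, n = 3). The level of Vegfa in normalized counts was lower in replicate 3, but its share there lay between those of the other libraries. Vegfb took 5.38%, 8.65% and 8.08% of the sum, Vegfc took 5.74%, 3.52% and 3.17%, and Pgf took 2.02%, 2.09% and 2.41%. Vegfc therefore exceeded Vegfb in replicate 1 and was below it in the other libraries. These minor shares depended on the length used, as the mean share of Vegfb was 7.37% per kb of exon and 2.97% without division by length. With the longest coding sequence as length, Pgf (3.66%) passed Vegfc (2.30%), against 2.17% and 4.14% per kb of exon.

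Vegfd (listed under its older name Figf), the other ligand of Flt4, is not one of the 9 genes and was added to the sum after its level had been seen. It had 630, 969 and 242 normalized counts, 4.01 times higher in replicate 2 than in replicate 3, and exceeded Vegfc per kb in 3 of 3 libraries, by 2.53 times or more. With Vegfd in the sum, the share of Vegfa was 75.8%, 69.7% and 79.9%, a mean of 75.2% ± 5.12, and that of Vegfd was 12.8%, 18.6% and 7.43%. The near-constant share of Vegfa among the 4 ligands was thus not kept when Vegfd was counted.

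**Figure D2:**
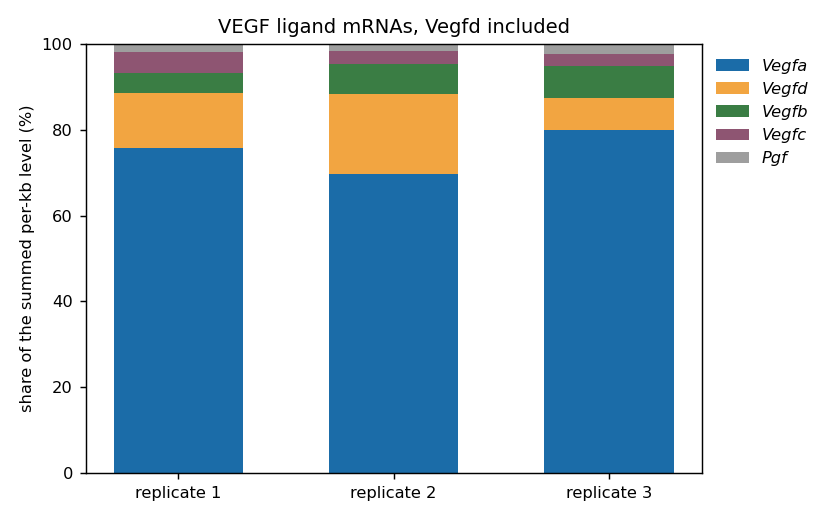
Share of each ligand (percent) in the summed per-kb level of Vegfa, Vegfd, Vegfb, Vegfc and Pgf, as 1 stacked bar per replicate. Vegfa takes 69.7% to 79.9% and Vegfd 7.43% to 18.6%, with the widest Vegfd band in replicate 2.

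Receptor transcripts were scarce. Flt4, the receptor of Vegfc and Vegfd and a marker of lymphatic endothelium (chr11:49609263-49652739, plus strand), was the only detected receptor, with 87.7, 62.7 and 78.2 normalized counts, a mean of 76.2 ± 12.6. Flt1, a high-affinity receptor that also has a secreted form acting as a decoy (chr5:147561604-147726011, minus strand), had 6.95, 12.7 and 5.93 normalized counts from 8, 18 and 5 reads. Kdr, the main signalling receptor for Vegfa (chr5:75932827-75978458, minus strand), had 4.34 and 1.41 normalized counts in replicates 1 and 2, from 5 and 2 reads, and no read in replicate 3, which allows up to 3.56 normalized counts. At this depth neither Flt1 nor Kdr could be said to differ between libraries, and the secreted form of Flt1 was not told apart from the full receptor. Per kb, Flt4 exceeded Flt1 by 20.7, 8.11 and 21.7 times, and Vegfa exceeded Flt4 by 146, 198 and 114 times.

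Promoters of the 2 scarce receptors are printed the same way, 250 bases upstream of the RefSeq start on the minus strand of chromosome 5 (Flt1 at chr5:147726012-147726261, Kdr at chr5:75978456-75978705, GRCm38.p6). Capitals mark GC boxes and, in Flt1, also the CRE and the TATA box.
Flt1 promoter: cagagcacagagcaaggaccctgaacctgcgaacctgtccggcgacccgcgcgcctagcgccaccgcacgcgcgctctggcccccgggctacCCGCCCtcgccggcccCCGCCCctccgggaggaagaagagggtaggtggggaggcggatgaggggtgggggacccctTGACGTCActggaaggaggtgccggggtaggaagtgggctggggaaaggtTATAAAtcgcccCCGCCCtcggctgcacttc
Kdr promoter: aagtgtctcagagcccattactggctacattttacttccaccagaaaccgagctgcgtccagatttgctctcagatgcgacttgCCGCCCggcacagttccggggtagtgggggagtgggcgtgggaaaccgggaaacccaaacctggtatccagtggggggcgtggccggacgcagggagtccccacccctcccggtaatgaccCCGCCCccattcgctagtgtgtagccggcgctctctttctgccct
The Flt1 window held 3 GC boxes, a CRE beginning 81 bases and a TATA box beginning 31 bases upstream of the start, and the Kdr window held 2 GC boxes and none of the other motifs. A GC box was present in the windows of all 9 genes, from 1 in Nrp1 to 5 in Nrp2, against 32.7% of all 32841 RefSeq windows of this length. The abundant Vegfa and the nearly undetected Kdr thus had the same number of GC boxes. The AP-1 letters, present in 6.75% of all windows, and the hypoxia core, present in 16.6%, were found in none of the 9. The CRE (1.55% of windows) and the TATA box (12.4%) were found in Flt1 only. Both were chosen because they had been read in Flt1, so their presence there was fixed in advance. GC content of the 9 windows ran from 59.2% to 76.4%, above the median of 52.4% over all windows.

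Endothelial markers were read beside the receptors, since Flt1, Kdr and Flt4 are all endothelial genes. Of 15 endothelial markers, 3 were detected (Egfl7, Esam and Ecscr), and 6 had no read in any library, namely Tie1, Cldn5, Emcn, Sox17, Robo4 and Mmrn2. The defining markers Pecam1 (9.55, 3.52 and 2.37 normalized counts) and Cdh5 (0, 0 and 1.19) were at or near 0. The summed list came to 958, 1250 and 1048 normalized counts, of which Ecscr alone gave 809, 953 and 927. Exons of Ecscr share 62 bases with a gene on the opposite strand, and whether the counting used strand is not given in the sources used here. Tek, the angiopoietin receptor, stood apart at 185 normalized counts in replicate 2 against 6.95 and 2.37. Flt1 was also highest in replicate 2, on the few reads given above, while Kdr and Flt4 were highest in replicate 1. Of 4 lymphatic markers only Prox1 was detected, at 11.3, 20.4 and 14.2 normalized counts, lowest in replicate 1, where Flt4 was highest. The summed lymphatic list was 44.3, 27.5 and 27.3 normalized counts. Of this sum Reln, under the minimum, gave 22.6 in replicate 1 and 0.705 in replicate 2. Unlike Prox1, Reln was highest in replicate 1 and lowest in replicate 2, as Flt4 was. Lyve1, also under the minimum, had 10.4, 6.34 and 0 normalized counts and was likewise highest in replicate 1. These orders rest on few reads, with 13, 29 and 12 for Prox1, 26, 1 and 11 for Reln, and 12, 9 and 0 for Lyve1. In the test between libraries given below, Flt4 was called in no pair with the read totals. With the deposited size factors it was called in replicate 1 against 2 only. The part of such cells in the Flt4 level was not tested.

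**Figure D3:**
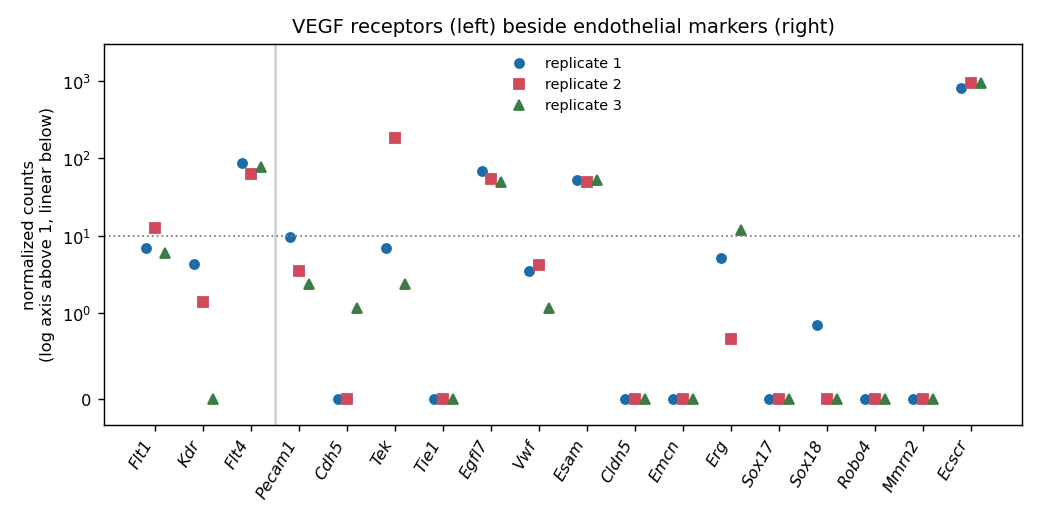
Normalized counts (log axis above 1, linear below) of the 3 VEGF receptors (left of the line) and 15 endothelial markers in each replicate, with the detection minimum of 10 dotted. Flt4 lies between 62.7 and 87.7, while 6 endothelial markers sit at 0 in every library and Ecscr lies at 809 to 953.

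Both neuropilins were well detected. Nrp1, which binds Vegfa and Sema3a (chr8:128358604-128503363, plus strand), had 2232, 4256 and 1794 normalized counts, a mean of 2761 ± 1313. Replicate 2 was more than 1.5 times either other library, and without it the remaining values differed by 1.24 times. Nrp2, which binds Vegfc and Sema3f (chr1:62703285-62818695, plus strand), had 1407, 1463 and 2024 normalized counts, a mean of 1632 ± 341. It was highest in replicate 3, the library in which Nrp1 was lowest. The summed leukocyte list given above was also highest there. The summed pericyte list was highest there too through Cspg4 (3546, 5232 and 11476 normalized counts), while the other detected pericyte genes, Mcam (886, 1496 and 544), Rgs5 (208, 106 and 104) and Notch3 (40.8, 228 and 23.7), were lowest in replicate 3. Mcam and Notch3, like Nrp1, were highest in replicate 2. The part of these cells in the Nrp1 and Nrp2 levels was not tested.

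The ratio of Nrp1 to Nrp2 per kb averaged 2.17 ± 1.24 (SD, n = 3), with 1.92 in replicate 1, 3.52 in replicate 2 and 1.07 in replicate 3. Replicate 2, described above as apart in 3 of 10 fibroblast markers, had the highest ratio, and the range without it was 1.07 to 1.92. On normalized counts without division by length the ratio was 1.59, 2.91 and 0.886, so that in replicate 3 the order of the neuropilins depended on the length used. The summed per-kb level of the neuropilins exceeded that of the 3 receptors by 29.8, 64.1 and 35.6 times.

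Placed on one per-kb scale, the mean levels ran in the order Vegfa, Nrp1, Nrp2, Vegfb, Vegfc, Pgf, Flt4, Flt1 and Kdr. Vegfa stood clear of Nrp1 (282 ± 134 normalized counts per kb) in each library, by 6.82, 3.46 and 5.89 times. Nrp2 (138 ± 28.8 per kb) and Vegfb (116 ± 30.8 per kb) did not differ beyond their spread, with a log2 ratio of 0.25 ± 0.53 and Vegfb the higher one in replicate 2. Vegfb and Vegfc (68.1 ± 32.0 per kb) overlapped as well, with a log2 ratio of 0.85 ± 0.82. Lower in the order, Vegfc exceeded Pgf (34.4 ± 3.59 per kb) and Pgf exceeded Flt4 (9.26 ± 1.53 per kb) in 3 of 3 libraries, and the per-kb range of Flt1 (0.439 to 0.939) overlapped that of Kdr (0 to 0.481). Against the detected genes Nrp1 was at percentile 73.7, Nrp2 at 56.3, Vegfb at 52.2, Vegfc at 38.7, Pgf at 24.0 and Flt4 at 6.54. Annotated exons can be longer than the transcript in use, and with the longest coding sequence as length Pgf passed Vegfc, while with the longest transcript all 9 ranks were kept.

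**Figure D4:**
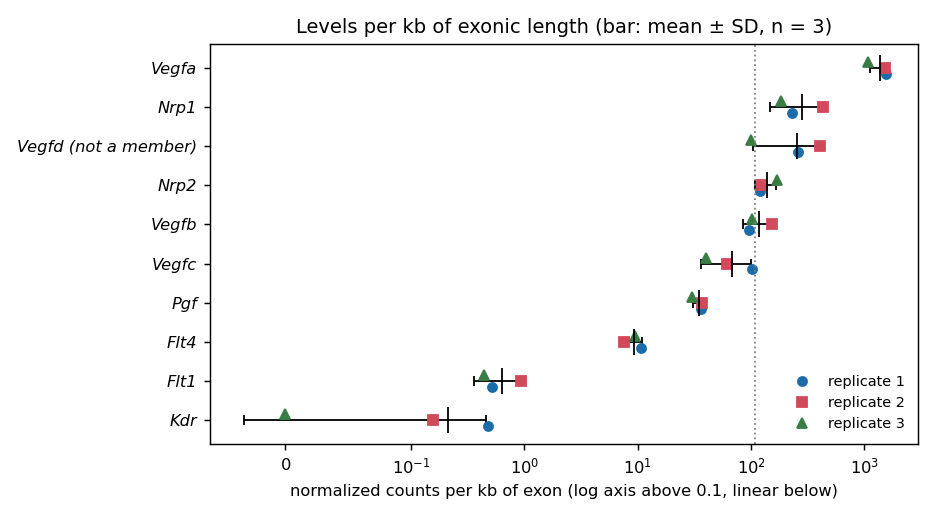
Normalized counts per kb of exon (log axis above 0.1, linear below) for the 9 genes and Vegfd, with points per replicate and the mean ± SD (n = 3) as bars. The dotted line is the median of 107 over detected genes, which Vegfa at 1381 exceeds and Flt4, Flt1 and Kdr lie far below.

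Differences between libraries were compared for each gene by a two-sided exact binomial test on read counts with Benjamini-Hochberg adjustment over all genes tested, which compares libraries and not conditions. In replicate 1 against 2, 3 of the 8 members tested were called at 0.05, beside 69.3% of all 14771 genes. In replicate 1 against 3 it was 4 of 8 beside 52.8%, and in replicate 2 against 3 it was 5 of 8 beside 63.2%, so the members were called no more often than genes at large. Kdr had too few reads to be tested. Vegfc and Nrp1 were called in all 3 pairs, Vegfa and Nrp2 in both pairs with replicate 3, Vegfb in both pairs with replicate 2, and Pgf, Flt1 and Flt4 in none.

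Among these calls, Nrp1 in replicate 2 against 3 had the smallest adjusted p (exact binomial test, adjusted p = 5.76e-271). It had 6040 and 1514 reads there, a ratio of 2.37 in normalized counts. Vegfc in replicate 1 against 3 had a wider ratio of 2.59 on fewer reads, 290 and 82 (exact binomial test, adjusted p = 1.04e-16). Ratios given here use the size factors, while the test took its expected share from the read totals. The p-values therefore do not test these exact ratios. For Vegfa the ratio was 1.03 between replicates 1 and 2 (exact binomial test, adjusted p = 0.743). Between replicates 1 and 3 it was 1.44 (exact binomial test, adjusted p = 1.88e-97). When the deposited size factors set the expected share, the first of these Vegfa comparisons passed the threshold. So did that of Flt4 (ratio 1.40, exact binomial test, adjusted p = 0.05 with the read totals). This brought the calls in replicate 1 against 2 to 5 of 8. The share of all genes called under that setting is not given here, so this count has no background beside it.

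A range of more than 2-fold between the highest and the lowest library was found in 2 of the 7 detected members, Vegfc and Nrp1, beside 22.0% of the 12204 detected genes. On the log2(normalized count + 1) scale the SD between libraries had a median of 0.29 for the detected members and 0.30 for detected genes as a whole. Vegfc (SD 0.68) and Nrp1 (SD 0.65) lay above the upper quartile of 0.48, and Pgf (SD 0.15) lay below the lower quartile of 0.18. Of the 7 detected members, 3 were highest in replicate 1, 3 in replicate 2 and 1 in replicate 3, beside 31.5%, 40.6% and 27.9% of all detected genes. In turn 2 were lowest in replicate 1, 1 in replicate 2 and 4 in replicate 3, beside 34.5%, 37.3% and 28.3% of all detected genes.

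**Figure D5:**
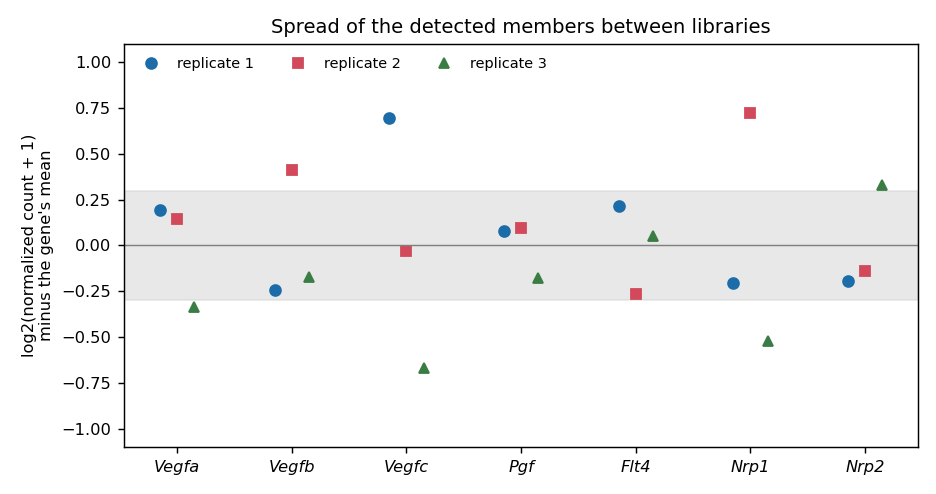
Deviation of log2(normalized count + 1) from the mean of each detected member in replicates 1, 2 and 3, with the median SD of all detected genes (0.30) as a grey band on either side of 0. Vegfc in replicates 1 and 3 and Nrp1 in replicates 2 and 3 lie farthest outside the band, and all points of Pgf lie inside it.

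Other genes of the pathway were read from lists. The median SD of log2 values over the detected genes of a list was 0.24 for oxygen sensing, 0.25 for receptor signalling, 0.26 for hypoxia targets, 0.29 for matrix traps, 0.39 for neuropilin partners, 0.48 for VEGF-C and VEGF-D maturation and 0.54 for class 3 semaphorins, beside 0.30 for all detected genes. The oxygen-sensing genes, which set Vegfa transcription in hypoxia, were detected in 8 of 9 cases and none had a range of more than 2-fold. Hif1a, the oxygen-regulated factor, had 8533, 12221 and 11690.3 normalized counts, and Egln1, a hydroxylase that marks it for decay, had 2368, 1857 and 2616. Hif1a was lowest in replicate 1 and Egln1 in replicate 2, and their part in the Vegfa level was not tested. All 12 other hypoxia targets were detected and 2 had a range of more than 2-fold, and the highest were Ldha, a glycolytic enzyme, at 33514, 42800.0 and 48796 normalized counts, and P4ha1, a collagen prolyl hydroxylase, at 9387, 7393 and 11585. Both were highest in replicate 3, as were Slc2a1, Pgk1, Ndrg1, Car9 and Ero1l. Pdk1, Ankrd37 and Pfkfb3 were highest in replicate 2. Only Adm (5791, 4946 and 5252) and Bnip3 (3917, 3608 and 3295) were highest in replicate 1, as Vegfa was. Of this list, Bnip3 alone was lowest in replicate 3, where Vegfa was also lowest.

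Proteins that mature VEGF-C and VEGF-D were all detected (6 of 6), and 3 had a range of more than 2-fold. Furin, a convertase that cleaves their precursors, had 2417, 2958 and 3674 normalized counts, and Ccbe1, which is needed for Vegfc processing by Adamts3, had 1743, 805 and 1109. Adamts14, a protease related to Adamts3, was more than 2-fold above both other libraries in replicate 2, at 218, 820 and 196. Vegfc itself did not follow this pattern, as its replicate 2 lay between the others.

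Downstream of the receptors, 23 of 26 signalling genes were detected although Flt1 and Kdr were not, and 2 had a range of more than 2-fold. Akt1, a survival kinase, had 5976, 8895 and 7436 normalized counts and Mapkapk2, a kinase downstream of p38, had 4509, 4321 and 5306. Shb, an adaptor that binds Kdr, was lower in replicate 2, at 155, 62.7 and 231. Most of these genes serve many receptors, so their levels are no measure of VEGF signalling.

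For the neuropilins, 6 of 7 class 3 semaphorins were detected, 3 of them with a range of more than 2-fold. Sema3c had 1524, 2172 and 2689 normalized counts, and Sema3a, a repellent guidance cue that binds Nrp1, had 1512, 1394 and 2610. All 6 partner genes were detected, 2 with a range of more than 2-fold, and the highest were Plxna1, the plexin that signals for Nrp1 and semaphorins, at 3104, 5140 and 3654, and Gipc1, an adaptor of the Nrp1 tail, at 1284, 1093 and 1886. Plxna1 and Nrp1 were both highest in replicate 2, and Plxna2 was more than 2-fold above both other libraries there, at 174, 818 and 167.

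Matrix genes whose products can bind or trap VEGF were all detected (7 of 7), and 2 had a range of more than 2-fold. Thbs1 had 137912, 149326 and 190238 normalized counts and Sparc had 146437, 131983 and 172249. Thbs2, the related thrombospondin, was above both other libraries in replicate 2, at 4191, 13460.1 and 3892. Of 5 angiopoietin and Tie genes 2 were detected, Angpt1 at 206, 142 and 159 and Angpt4 at 905, 312 and 735 normalized counts, the latter more than 2-fold lower in replicate 2.

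The genes whose profile over the 3 libraries lay nearest to Vegfa and Nrp1 were sought among the 3784 genes averaging 1000 or more normalized counts, by the largest difference in centred log2 value. For Vegfa they were Ppid (0.0018), Midn (0.0071) and Wsb1 (0.018), and 43 genes lay within 0.1. Nrp1 had fewer near neighbours, with 6 genes within 0.1, led by Nfix (0.052), Slc38a1 (0.053) and Chd3 (0.064). With 3 libraries such likeness is a description only.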

How the data were processed

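RNA-seq libraries were prepared by the authors with the Illumina TruSeq Stranded mRNA kit and sequenced on a HiSeq4000 as 50 bp single-end reads. FastQC 0.11.5, ea-utils, TopHat 2.0.13 (mm10, 2 mismatches, unique reads with an alignment score of 10 or more), SAMtools 0.1.19.24 and HT-Seq count 0.5.3p3 were used, and the annotation, strand setting and DESeq version are not given in the sources used here. The signal deposited by the authors was normalized counts per gene, that is read counts divided by 1 size factor per library (1.15, 1.42 and 0.844), and 3 further columns of values were left out, as no label tied them to a sample. Dividing by the value of 1 read gave whole numbers for 100% of values (tolerance 0.1), summing to 22540518, 27037783 and 17244505 reads in replicates 1, 2 and 3.

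Means and SDs refer to normalized counts, and 1 was added before taking log2. Detection required a minimum of 10 normalized counts in each library. Levels per kb used the union of exons in GENCODE M21 (GRCm38, the build of mm10). Each pair of libraries was compared per gene by an exact binomial test (two-sided) of the recovered reads against the share of the pair's read totals. Genes with 10 or more reads in the pair were tested and Benjamini-Hochberg adjustment was applied over them, with a threshold of 0.05. This step was tested on simulated data drawn with counting error only. Further variation between libraries, as in the real data, was not simulated. TMM factors came from edgeR 4.0.16 in R 4.3.3, used for scaling only. Python 3.11.15, numpy 2.4.6, scipy 1.17.1, pandas 2.3.3 and matplotlib 3.10.9 were used for the rest.

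Genes named were all 9 members and, from each pathway list, the 2 genes with the highest mean normalized counts and those more than 2-fold above or below both other libraries in replicate 2, plus the 3 nearest profiles to Vegfa and to Nrp1. The other hypoxia targets were named as well, after their values had been seen. Members and lists were chosen with earlier results of these data known. Markers were chosen for endothelial, lymphatic, leukocyte, keratinocyte, pericyte, Schwann and fibroblast cells. Promoter windows came from RefSeq (GRCm38.p6), all 9 genes matched, and the windows of all genes include non-coding genes and alternative starts. The motifs were chosen after the sequences had been seen, the CRE and TATA box because they were read in Flt1. Windows of Pgf and Flt4 lay within annotated exons and that of Nrp2 partly so, and these were not printed. The window of Nrp1, also not printed, lay outside annotated exons but downstream of the GENCODE gene start. Its RefSeq start was 469 bases from the GENCODE start. Alternatives covered scaling, gene length, minimums, fold limits and each replicate left out.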

Additional observations from a re-analysis of the deposited data

How the results depend on the processing

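All 18 member means under equal totals or TMM scaling stayed within 1 SD. Both scalings were brought to nearly the same mean library total, so the means could move little and this is a weak check. Under other minimums, 7 to 8 members were detected. The number of members with a range of more than 2-fold was 2, and 0 to 1 with 1 replicate left out, being 0 without replicate 3 and 1 without replicate 1 or without replicate 2. Calls that were also more than 2-fold numbered 0, 1 and 1 in replicate 1 against 2, 1 against 3 and 2 against 3. For replicate 1 against 2, TMM library sizes and the deposited size factors each gave 5 calls in place of 3, adding Vegfa and Flt4. Shares of all genes under these other settings are not given here, so the counts cannot be set beside genes at large. Without division by length, shares of the ligands were 92.9% for Vegfa, 2.97% for Vegfb, 2.55% for Vegfc and 1.59% for Pgf. With the longest coding sequence they were 88.7%, 5.37%, 2.30% and 3.66%, which ranked Pgf 5 and Vegfc 6 of the 9 genes. With Vegfd added they were 75.2% for Vegfa and 1.90% for Pgf. No paired analysis was possible because the libraries belong to a single condition. Depth limits Flt1 and Kdr, with at most 18 reads in a library.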
